A study of Mus musculus with 3 samples.

Results

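Genes of epithelial and mesenchymal identity were examined in Hepa1c1c7, an established hepatoma line of the mouse. The cells were transfected with empty vector, with a vector carrying Mst1r or with a vector carrying Slpi, and RNA of each was measured on 1 single-colour Agilent array. The parental line was the same for the 3 arrays, so that, per the labels, the groups differed in the transfected vector. The members were 10 of the 22908 genes that could be named on the array, chosen from a list of symbols. They were 4 epithelial genes (Cdh1, Epcam, Krt8 and Krt18) and 6 mesenchymal genes (Cdh2, Vim, Snai1, Snai2, Zeb1 and Zeb2), measured by 13 probes. The question was whether adhesion or mesenchymal genes shifted on the array labelled Mst1r vector, since the receptor encoded by Mst1r is tied to cell scattering. Each group was a single array, so differences could not be tested and have no replicate behind them.

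Mst1r encodes RON, a receptor tyrosine kinase of the MET family, which on binding its ligand loosens contacts between epithelial cells and promotes their movement. Epithelial cells hold together through E-cadherin (Cdh1) at adherens junctions and through EpCAM (Epcam), and simple epithelia such as hepatocytes build their filaments from keratins 8 and 18. During the transition to a mesenchymal state these genes are turned down, while N-cadherin (Cdh2) and the filament protein vimentin (Vim) are turned up. The zinc finger proteins Snail (Snai1), Slug (Snai2), ZEB1 and ZEB2 repress epithelial genes by binding E-box motifs in their promoters. Slpi encodes a secreted inhibitor of proteases.

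The E-box bound by these repressors, CACCTG or CAGGTG on its complementary strand, was searched in the 250 bases before the annotated start of each gene that had an entry in the RefSeq promoter table (GRCm38.p6). Windows were read for 6 of the 10 members, and those of 4 of the 6 held the motif. Cdh1 and Snai2 had no entry, and the windows of Cdh2 and Zeb1 were left out and are not reported here. These 4 windows are shown because they hold the letters that these repressors recognise, in 3 epithelial members and in the repressor gene Snai1. Capitals mark the E-box, and each sequence is written from 5′ to 3′ on the strand of the gene. The Epcam window (chr17:87635729-87635978, plus strand) held 2 motifs, starting 187 and 19 bases before the annotated start. The Krt8 window (chr15:102004343-102004592, minus strand) held 1, 111 bases before it, and the Krt18 window (chr15:102027966-102028215, plus strand) held 1, 214 bases before it. The Snai1 window (chr2:167537945-167538194, plus strand) held 1, 126 bases before it.
Epcam: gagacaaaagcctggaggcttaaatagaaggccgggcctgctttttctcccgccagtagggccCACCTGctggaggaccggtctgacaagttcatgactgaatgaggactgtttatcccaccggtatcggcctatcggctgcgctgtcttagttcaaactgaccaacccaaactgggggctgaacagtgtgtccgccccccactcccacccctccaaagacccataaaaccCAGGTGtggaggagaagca
Krt8: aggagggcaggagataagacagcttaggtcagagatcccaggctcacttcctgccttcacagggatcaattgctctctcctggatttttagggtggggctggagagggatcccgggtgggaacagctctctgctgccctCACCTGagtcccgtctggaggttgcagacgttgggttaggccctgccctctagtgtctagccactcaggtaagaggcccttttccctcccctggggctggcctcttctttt
Krt18: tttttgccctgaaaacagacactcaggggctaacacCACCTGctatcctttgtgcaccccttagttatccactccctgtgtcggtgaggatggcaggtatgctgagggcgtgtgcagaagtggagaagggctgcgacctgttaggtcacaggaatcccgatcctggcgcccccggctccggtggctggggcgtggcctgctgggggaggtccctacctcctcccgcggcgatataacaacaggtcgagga
Snai1: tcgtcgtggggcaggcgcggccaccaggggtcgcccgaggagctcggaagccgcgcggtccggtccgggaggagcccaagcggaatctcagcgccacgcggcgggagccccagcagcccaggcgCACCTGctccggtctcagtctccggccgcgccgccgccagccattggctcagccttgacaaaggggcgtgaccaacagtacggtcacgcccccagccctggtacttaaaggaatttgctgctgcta

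The motif stood in 17.2% of the 32851 windows of this length, and 2.06% held 2 or more, as the Epcam window did. The window of Vim and the 4 windows of Zeb2 did not contain these letters. A match describes the sequence only and does not show that a factor bound there. Cdh1, Cdh2, Snai2 and Zeb1 are described below by their signals.

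The transfected genes and the cell identity were checked first. The only Mst1r probe was not well above background, at 4.15, 4.08 and 3.70 with the empty, Mst1r and Slpi vectors, and the brighter Slpi probe gave 6459, 3843 and 6680. These probes therefore did not show a rise of either gene on its own array. Whether they lie within the transfected coding sequences was not determined, and the real-time PCR by which the study measured Mst1r overexpression was not analysed here. Each vector name below means the array labelled so. Of the 6 hepatocyte markers, Alb, Afp and Trf were well above background on the 3 arrays, whereas Hnf4a, a transcription factor that defines hepatocytes, was not on any, and Ttr and Apoa1 stayed at signals up to 43.1. The 4 cholangiocyte markers (Krt7, Krt19, Sox9 and Spp1) were well above background on each array, and their summed signal was 31291, 19961 and 26375 with empty, Mst1r and Slpi vector. Of 5 stellate cell and fibroblast markers, 3, 4 and 3 were well above background (summed signal 7343, 7319 and 6375), as were 1 of 3 endothelial markers on each array (44.8, 42.8 and 31.1) and 2, 1 and 1 of 4 leukocyte markers (567, 402 and 510). The pan-leukocyte gene Ptprc and the macrophage gene Adgre1 were not well above background on any of the arrays. Cd68, another of these leukocyte markers, was so on each, at 531, 378 and 482, and Lyz2 with empty vector only (27.9). On the 3 arrays 46.7% to 48.5% of the probes were well above background.

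Of the 10 members, 7 were well above background on every array and 3 on none. Cdh1, Epcam and Snai2 were the 3 that stayed at background. The single Cdh1 probe (row 186 of the array) had processed signals of 4.76, 4.84 and 4.36 with the empty, Mst1r and Slpi vectors. The single Epcam probe (row 87) had 4.24, 4.34 and 3.81 in the same order. The values of both genes lay close to the lowest signal on each array, between 3.26 and 3.74. No fold can be given for them, and a loss of E-cadherin or EpCAM transcripts could not have been seen from this starting level. Snai2, the gene of Slug, was likewise not well above background, at 5.03, 5.13 and 4.48 (row 198).

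Both keratins were strongly detected. The Krt8 probe (row 180) gave 69776 (empty vector), 60684 (Mst1r vector) and 64961 (Slpi vector). The Krt18 probe (row 107) gave 150328, 127996 and 140502. In both genes the empty vector array was highest and the Mst1r vector array lowest before scaling, an order that the 75th percentile of the arrays (268, 229 and 254) shared. After each array was scaled to that percentile, Krt8 differed from empty vector by 0.03 ± 0.08 (log2) with Mst1r vector and by -0.02 ± 0.08 with Slpi vector. The error is the SD that repeated spots of 1 array give for such a difference at this signal, and it holds no variation between cultures. Krt18 differed by -0.0018 ± 0.081 and -0.02 ± 0.08. The keratin differences were thus within the error between spots on both vector arrays.

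**Figure D1:**
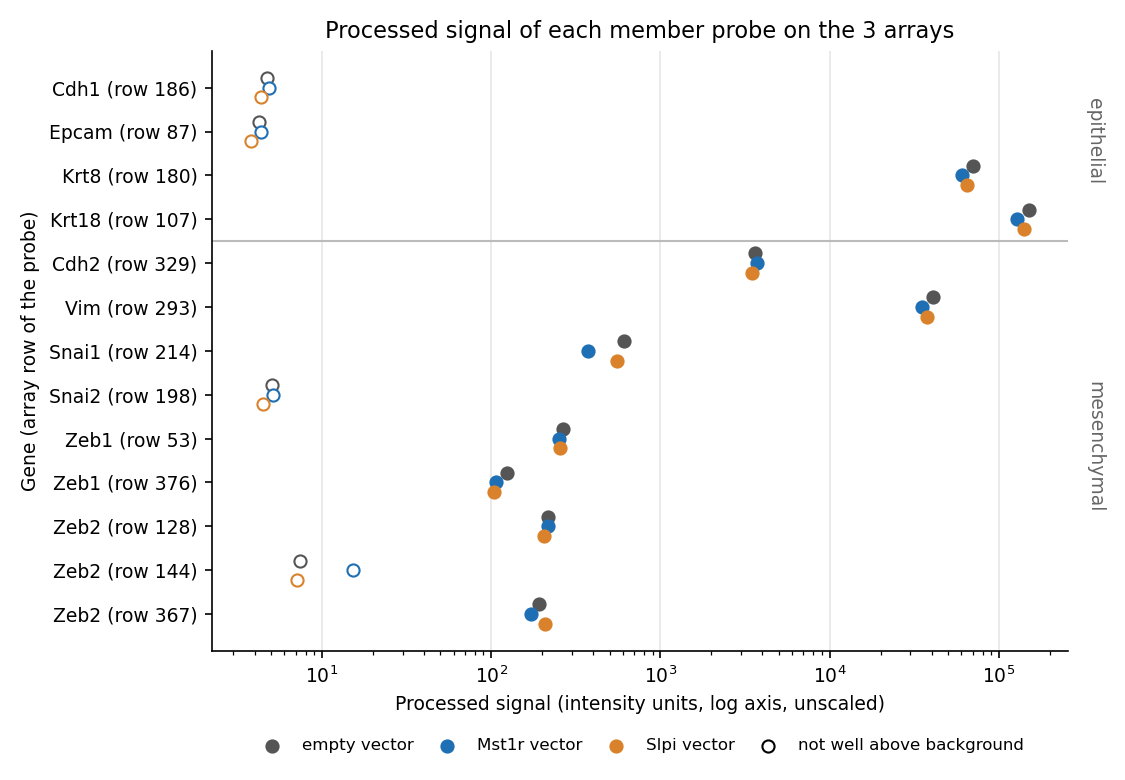
Processed signal before scaling (intensity units, log axis) of the 13 member probes on the 3 arrays, with 1 point per array and open points for probes not well above background. Cdh1, Epcam, Snai2 and 1 of the 3 Zeb2 probes have open points on all arrays, and among the filled rows the Snai1 points are the farthest apart, with Mst1r vector at 371 and empty vector at 606. Levels of different probes are not comparable.

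Snai1, the gene of Snail, was the member with the largest difference. Its probe (row 214) read 606, 371 and 552 with the empty, Mst1r and Slpi vectors. The Mst1r vector array was the low one, and the other arrays lay close together. The scaled signal was 1.39-fold lower with Mst1r vector than with empty vector, a log2 difference of -0.48 ± 0.17. It was 1.34-fold lower than with Slpi vector, at -0.42 ± 0.17, in the comparison that leaves out the empty vector array. Between Slpi vector and empty vector the difference was -0.06 ± 0.17. Over the main setting and the alternatives the difference from empty vector stayed negative, between -0.71 and -0.44, and that from Slpi vector between -0.57 and -0.29.

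Cdh2 differed in the other direction. Its probe (row 329) gave 3620 (empty vector), 3723 (Mst1r vector) and 3479 (Slpi vector). The signals before scaling were nearly the same, and the Mst1r vector array was dimmer as a whole. After scaling, N-cadherin transcripts were 1.21-fold higher with Mst1r vector than with empty vector, a log2 difference of 0.27 ± 0.12. The difference was 0.25 ± 0.12 from Slpi vector, and 0.02 ± 0.12 between Slpi vector and empty vector. The size of the Cdh2 difference depended on the scaling, from 0.04 without scaling to 0.33. Vim, whose protein is the classical mesenchymal filament, gave 40554, 34947 and 37585 (row 293). It differed by 0.02 ± 0.08 with Mst1r vector and by -0.03 ± 0.08 with Slpi vector, within the error between spots.

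Zeb1 was measured by a probe in row 53, with signals of 266, 252 and 255 with the empty, Mst1r and Slpi vectors. The log2 difference was 0.15 ± 0.19 with Mst1r vector and 0.01 ± 0.19 with Slpi vector. A second Zeb1 probe (row 376) gave 124, 107 and 103, with differences of 0.0069 ± 0.21 and -0.19 ± 0.21. Neither probe of Zeb1 differed by more than the error between spots. Zeb2 had 3 probes. The brightest (row 128) gave 215, 216 and 204, with differences of 0.23 ± 0.21 and 0.0016 ± 0.21. The probe in row 367 gave 191, 173 and 207, with differences of 0.09 ± 0.21 and 0.20 ± 0.21. The third (row 144) was not well above background, at 7.37, 15.3 and 7.17. The Zeb2 probes disagreed on the sign between Mst1r vector and Slpi vector, at 0.23 ± 0.21 for row 128 and -0.11 ± 0.21 for row 367.

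No member differed 2-fold in any comparison. Among the 7 members tested against a signal minimum of 50 on the brighter array, the count at 2-fold with Mst1r vector was 0 higher and 0 lower, where 4.34% and 3.39% of 18010 features were. With Slpi vector it was again 0 and 0, beside 2.7% and 3.21% of 17812 features, and between Mst1r vector and Slpi vector 0 and 0, beside 4.17% and 2.7% of 17682. The smaller differences were set against 2 SD between spots. With Mst1r vector 1 member was higher by more (Cdh2) and 1 lower (Snai1), where 10.8% of the features were higher and 10.7% lower. A share of this size over all features leaves little to read from 2 of 7 genes. With Slpi vector 0 members passed in either direction, beside 4.45% and 4.69% of the features. Between the vectors 1 was higher (Cdh2) and 1 lower (Snai1), beside 10.9% and 11.8%. Both comparisons with empty vector share that array, so their differences are not independent.

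**Figure D2:**
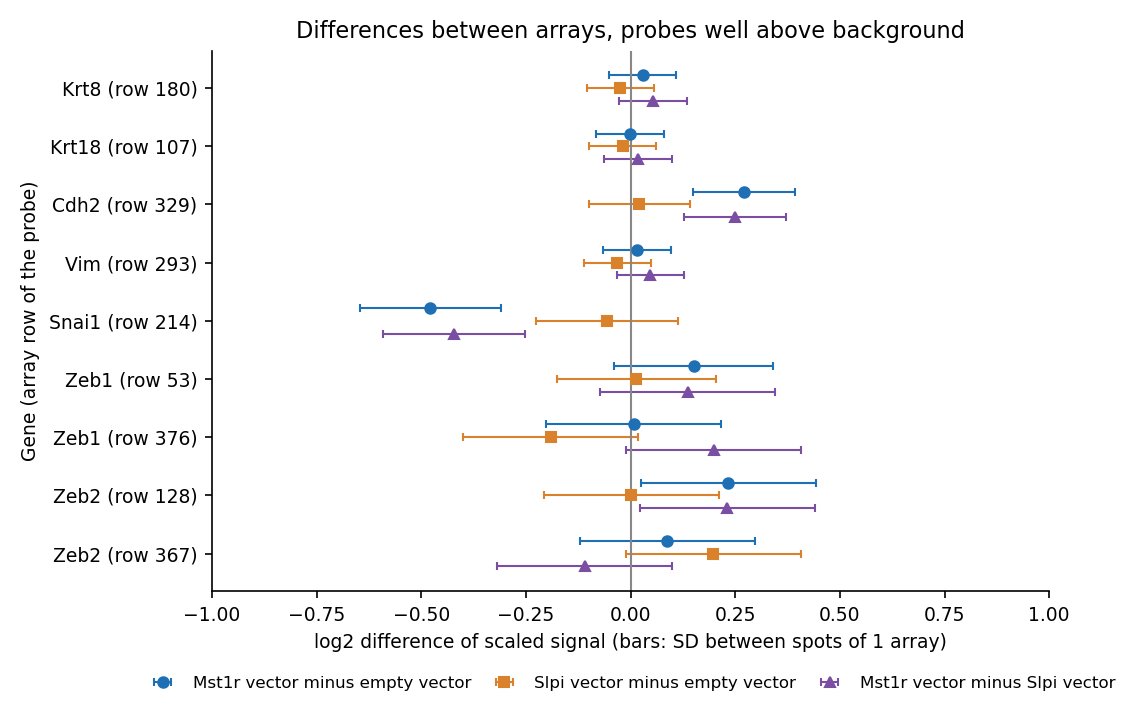
Difference of the scaled signal (log2) for the 9 member probes that were well above background on the 3 arrays, for Mst1r vector minus empty vector, Slpi vector minus empty vector and Mst1r vector minus Slpi vector; bars are the SD that repeated spots of 1 array give for the difference. Snai1 lies below 0 and Cdh2 above 0 in both comparisons with Mst1r vector, and the keratins and Vim lie at 0 within their bars. Without scaling the Cdh2 difference from empty vector is 0.04, and those of Krt8 and Vim with Mst1r vector turn negative.

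The median log2 difference with Mst1r vector was 0.01 over the 2 epithelial members and 0.15 over the 5 mesenchymal members with a mean signal over 50, beside -0.04 over all 16954 features of that brightness. Over the 3 mesenchymal members whose probe lay in rows 129 to 384 the median was 0.02. With Slpi vector the medians were -0.02 and 0.0016, beside 0.0034. The signs of these medians depended on the scaling. Without scaling the medians with Mst1r vector were -0.22 and -0.08, where the median of all features was -0.27, and with spike-in scaling those with Slpi vector were -0.26 and -0.24, where it was -0.24. Scaling to spike-ins moved the median of all features to -0.14 with Mst1r vector, and scaling to the median of all probes moved it to 0.17 with Slpi vector. Differences between genes of 1 array pair do not depend on such a shift. Relative to the mean of both keratins, Snai1 was lower by a log2 difference of -0.49 with Mst1r vector and Cdh2 was higher by 0.26, whereas Vim was at 0.0020. With Slpi vector these values were -0.04, 0.04 and -0.0094.

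Other genes of cell contacts and identity were described in 6 lists with 122 entries, which add to the members what the array held on junctions and scattering. The lists were chosen with earlier results of these data known. Counts of a list beside those of all features are therefore descriptive and not independent support. In the tight junction and desmosome list, 13 of 14 genes with a mean signal over 50 were lower with Mst1r vector, with a median of -0.22, where 57.8% of all features were lower with a median of -0.04. Of its 14 genes over the signal minimum, 5 were lower by more than 2 SD and 0 higher, where 10.7% of all features were lower and 10.8% higher by that much. The lowest under the naming rule were Cldn2, a pore-forming claudin, and Dsp, which anchors keratin filaments to desmosomes. Cldn2 gave 245 (empty vector), 105 (Mst1r vector) and 230 (Slpi vector), a difference of -0.99 ± 0.21 with Mst1r vector. Dsp gave 1877, 1068 and 1442, with differences of -0.58 ± 0.12 and -0.30 ± 0.12. Also past 2 SD with Mst1r vector, and named after their values were seen, were the desmosomal cadherin Dsg2 (-0.45 ± 0.15) and the junction protein Cgn (-0.34 ± 0.12). At the upper end under that rule stood Tjp1 and F11r, at -0.0053 ± 0.12 and -0.0072 ± 0.12. In rows 129 to 384 alone the median of the list was -0.13 over 10 genes.

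The other epithelial genes were lower with Mst1r vector in 8 of 9 cases, with a median of -0.39, beside 57.8% of all features and a median of -0.04. Among these 8 was Grhl1 (row 35), whose probe was not well above background with Mst1r vector. Of 11 genes over the signal minimum, 6 were lower by more than 2 SD, beside the 10.7% of all features, and 0 higher. Grhl1 is again among them, and it passed the minimum through the empty vector array. Krt7, the keratin of ductal epithelia, gave 13189, 7963 and 13233 with the empty, Mst1r and Slpi vectors, a difference of -0.50 ± 0.14 with Mst1r vector. Grhl2, a transcription factor that maintains epithelial genes, gave 109, 65.0 and 101, a difference of -0.52 ± 0.21. In both genes the Mst1r vector array was the low one, as it was for Snai1. Krt7 and Krt19 also stand among the cholangiocyte markers, whose summed signal was lowest on that array (19961 against 31291 with empty vector and 26375 with Slpi vector), and the part of this in the list was not tested. This sum is unscaled and its largest terms are Krt7 and Spp1, whereas Sox9, another of these markers, gave 575, 634 and 477 and was higher with Mst1r vector, at 0.37 ± 0.17 (row 18). In RNA from whole cultures, fewer cells of a kind and less RNA per cell cannot be told apart. At the upper end were the epithelial transcription factor Elf3 (0.05 ± 0.55) and Cd24a (-0.05 ± 0.12). Against Slpi vector the list was also lower in 8 of 9 genes, with a median of -0.41, beside 55.6% of all features lower and a median of -0.03. In rows 129 to 384 the median with Mst1r vector was -0.33 over 8 genes. With Slpi vector the median of the list was 0.02, with 4 of 9 genes lower, beside 49% of all features.

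In the adherens junction list, 7 of 9 genes were lower with Mst1r vector, with a median of -0.16, which was -0.04 over the 6 genes in rows 129 to 384. Over all features 57.8% were lower, with a median of -0.04. By more than 2 SD, 1 of 10 was higher and 1 lower, near the 10.8% and 10.7% of all features. Nectin2, a cell contact protein of the immunoglobulin family, gave 5079 (empty vector), 3204 (Mst1r vector) and 5244 (Slpi vector), a difference of -0.43 ± 0.13. Cdh11, a cadherin of mesenchymal cells, gave 1514, 1787 and 1271 and was higher, at 0.47 ± 0.12 with Mst1r vector. Jup, the plakoglobin gene, was at -0.26 ± 0.19 and Ctnna1, the alpha-catenin gene, at -0.0052 ± 0.081.

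**Figure D3:**
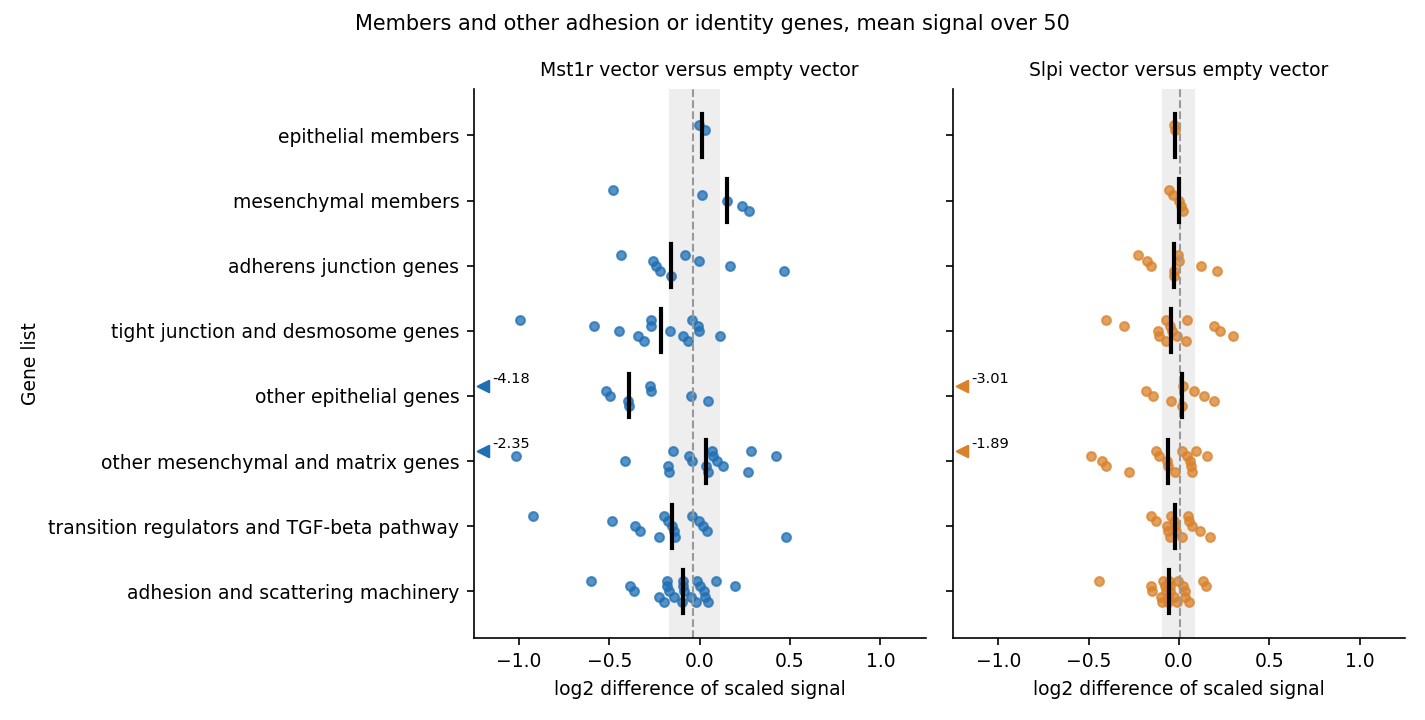
Difference of the scaled signal (log2) from empty vector for the members and the 6 further gene lists, with Mst1r vector on the left and Slpi vector on the right; each point is a gene with a mean signal over 50, black lines are list medians, the dashed line is the median and the grey band the interquartile range of all features, and triangles carry the value of points beyond the axis (Grhl1 and Des). The epithelial and junction lists other than the members lie left of the band's middle with Mst1r vector, with medians of -0.39 and -0.22, and near 0 with Slpi vector, where the sign of the medians depends on the scaling.

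Mesenchymal and matrix genes other than the members were split with Mst1r vector, with 8 of 17 lower and a median of 0.04, which was -0.19 without scaling and -0.06 over the 11 genes in rows 129 to 384. The share of all features that were lower was 57.8%, with a median of -0.04. Of 18 genes over the signal minimum, 1 was higher and 2 were lower by more than 2 SD, near the 10.8% and 10.7% of all features. Mmp3, a matrix metalloproteinase, gave 1069, 450 and 929 with the empty, Mst1r and Slpi vectors, a difference of -1.02 ± 0.15. At the other end were the collagen gene Col3a1 (0.42 ± 0.42) and the proteoglycan gene Vcan (0.28 ± 0.21), and Pdgfra, a growth factor receptor of fibroblasts, was at -0.41 ± 0.42. The gene past 2 SD on the high side, named after its values were seen, was the collagen gene Col1a1, with 2 probes printed on 10 spots each. They gave 6508, 6677 and 5718, and 6357, 6436 and 5818, with differences of 0.27 ± 0.04 and 0.25 ± 0.04. Before scaling the empty and Mst1r vector signals were nearly the same, and the Mst1r vector array was dimmer as a whole. The error is small because it was divided by the square root of the number of spots. For a probe printed once at this signal it was 0.14, and by that error Col1a1 would not pass 2 SD. With Slpi vector 10 of 17 were lower with a median of -0.06, beside 49% of all features and a median of 0.0034. The muscle and stellate cell filament gene Des gave 227, 37.9 and 58.2, a difference from empty vector of -2.35 ± 0.42 for Mst1r vector and of -1.89 ± 0.42 for Slpi vector. Its probe lay in row 55. Des is among the 2 genes lower by more than 2 SD with Mst1r vector, and there it passed the minimum through the empty vector array. The matrix gene Tnc was at -0.43 ± 0.21 with Slpi vector, the hyaluronan receptor gene Cd44 at 0.16 ± 0.14 and the fibronectin gene Fn1 at 0.09 ± 0.08. The signs of Cd44 and Fn1 were negative under spike-in scaling.

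Regulators of the transition and the TGF-beta pathway, a main inducer of it, were lower with Mst1r vector in 12 of 15 genes, with a median of -0.15. Among all features 57.8% were lower, with a median of -0.04. Of 16 genes over the signal minimum, 4 were lower and 2 higher by more than 2 SD, beside 10.7% and 10.8% of all features. The ligand gene Tgfb3 gave 3992 (empty vector), 1796 (Mst1r vector) and 3976 (Slpi vector), a difference of -0.92 ± 0.12. The ligand gene Tgfb1 gave 579, 352 and 538, a difference of -0.49 ± 0.17. Both ligand genes were low on the Mst1r vector array alone. The signal mediator Smad4 was at 0.04 ± 0.14. Among the genes higher by more than 2 SD was the ligand gene Tgfb2, at 18.6, 60.1 and 21.5 (row 162), which with empty vector was not well above background and is named after its values were seen. A second Tgfb2 probe (row 110) gave 4.02, 4.15 and 38.0 and was well above background with Slpi vector only, so the probes disagreed. Tgfb2 passed the minimum through the Mst1r vector array. With Slpi vector the list median was -0.02, and its named genes lay between Smad2 (-0.15 ± 0.12) and Id1 (0.17 ± 0.14), with signs that depended on the scaling.

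Genes of the adhesion and scattering machinery act downstream of MET family receptors or at the cell front. With Mst1r vector 17 of 22 were lower, with a median of -0.09, beside 57.8% of all features and a median of -0.04. By more than 2 SD, 2 of 22 were lower and 0 higher, near the 10.7% and 10.8% of all features. The adaptor gene Gab1 gave 179, 101 and 125 with the empty, Mst1r and Slpi vectors, with differences of -0.60 ± 0.21 and -0.44 ± 0.21. Met, the receptor most closely related to RON, gave 8407, 5485 and 7571, a difference of -0.39 ± 0.14 with Mst1r vector (row 83). A second Met probe (row 216) gave 157, 133 and 159 and was at -0.01 ± 0.21, so the probes disagreed. The membrane linker gene Ezr was at 0.20 ± 0.14, a sign that was negative without scaling, and the integrin gene Itga6 at 0.09 ± 0.14. With Slpi vector the list median was -0.05. On the probe of each gene with the highest signal, Itgb1 was at -0.15 ± 0.14, Itga5 at 0.15 ± 0.21 and Itga6 at 0.13 ± 0.14, within 2 SD in each case. The other Itga6 probes were at -0.17 ± 0.13 (row 270) and 1.22 ± 0.55 (row 69), so the probes disagreed. The probe in row 69 was past 2 SD but dim, at 27.6, 24.0 and 61.1 with the empty, Mst1r and Slpi vectors.

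With Slpi vector the adherens junction list had a median of -0.03, from Nectin3 (-0.22 ± 0.17) and Cdh11 (-0.17 ± 0.12) to Afdn (0.21 ± 0.55) and Nectin2 (0.12 ± 0.14). The tight junction and desmosome list had a median of -0.05, with Dsg2 (-0.41 ± 0.12) and Dsp past 2 SD on the low side and Pkp3 (0.30 ± 0.42) and Cldn7 (0.23 ± 0.55) highest. In the other epithelial list Grhl1 stood lowest, at -3.01 ± 0.42 in row 35, with a signal under 50 on the Slpi vector array. Among genes over 50 on both arrays, Ovol2 (-0.18 ± 0.12) and Cd24a (-0.15 ± 0.12) stood lowest, and Krt19 (0.23 ± 0.55) and Elf3 (0.19 ± 0.42) highest. The medians with Mst1r vector kept their negative sign in the main setting and the 10 alternatives that keep the signal minimum for the adherens junction, tight junction and desmosome, other epithelial, transition and scattering lists. The medians of all 6 lists with Slpi vector changed sign between scalings.

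The position of a probe on the array moved with large differences. Of the features at least 2-fold apart, 80.4% with Mst1r vector and 92.8% with Slpi vector had their probe in rows 1 to 128, which held 33.3% of the probes. The probes of Snai1, Cdh2, Vim and Krt8 lay below those rows, as did those of Krt7, Cldn2, Mmp3 and Tgfb3, whereas the probes of Krt18, Des, Grhl1 and Sox9, the Met probe with the higher signal, the probes of Zeb1 and Zeb2 with the highest signal and that of Dsp lay within them. The part of position in the differences of the latter was not tested. All 3 arrays shared 1 slide and 1 scan, so a group and its place on that slide cannot be told apart.

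**Figure D4:**
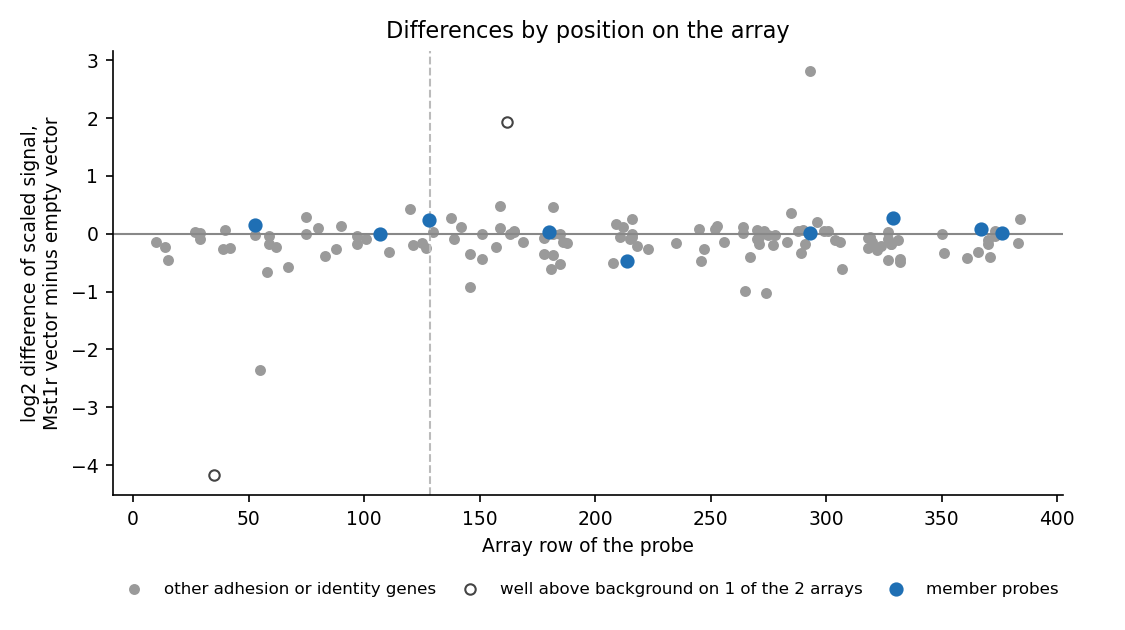
Difference of the scaled signal (log2, Mst1r vector minus empty vector) against the array row of the probe, for 134 probes of the members and the 6 lists with a signal over 50 on at least 1 of the 2 arrays; blue points are the 9 member probes, open points are probes well above background on only 1 of the 2 arrays, and the dashed line marks the end of row 128. The member probes stay within 1 log2 unit of 0 in all rows, and 5 probes of other genes lie at least 2-fold from 0. Scaling moves all points up or down together.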

How the data were processed

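Intensities were measured on 3 single-colour Agilent SurePrint G3 Mouse arrays of 62976 spots in 384 rows, 1 for each vector. The authors extracted the deposited intensities from the scans with Feature Extraction 12.0.3.1 per the file headers, as processed signal after background subtraction and spatial detrending, linear and without scaling across arrays. The deposited files also held flags for spots well above background, saturated spots (0 here) and outlier spots. A deposited table of the series held intensities equal to the mean processed signal of the probe within 0.01 (log2) for 99.8% of values, with medians of 18.3, 15.3 and 15.4 for empty, Mst1r and Slpi vector.

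From these deposited intensities, log2 signals were averaged over the spots of a probe without outlier spots, and the 75th percentile of the array over all non-control probes was subtracted, as the methods of the study scale. Probes were named through their RefSeq accession (GRCm38.p6 table, names only), which named 32994 of 56605 probes. A gene was represented by its brightest probe, and for members every probe is given. The error is the SD between spots of the 300 probes printed at least 10 times, by signal level, which rests on 6 to 794 probe and array values per level. For a probe printed on several spots it was divided by the square root of their number. Counts used a processed signal over 50 on the brighter array, medians a mean over 50. The number of arrays limits the precision, and no test was made. The script was tested on simulated data. Genes named beside the members were, for each list and vector, the 2 highest and 2 lowest differences among genes with a signal over 50 and well above background on both arrays. Some genes that this rule or a count would name are not reported here. Members and lists were chosen with earlier results of these data known. The alternatives were normexp (limma 3.58.1, R 4.3.3) on the median signals, 5 other scalings, the mean over probes, rows 129 to 384, outlier spots kept, no signal minimum and the deposited table. Python 3.11.15, numpy 2.4.6 and pandas 2.3.3 were used.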

Additional observations from a re-analysis of the deposited data

How the results depend on the processing

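Across 11 alternatives to the processing, 0 members were at least 2-fold apart in any of the comparisons. Median log2 differences of the members moved by more than the error between spots under some scalings. For the epithelial members they came to -0.095 (spike-in), -0.22 (none), -0.078 (quantile) and 0.14 (no signal minimum, which lets in Cdh1 and Epcam at background) with Mst1r vector, to 0.14 (median) and -0.26 (spike-in) with Slpi vector, and to -0.10 (median), 0.17 (spike-in), -0.12 (none) and 0.18 (no minimum) between the vectors. For the mesenchymal members they came to -0.080 (none) with Mst1r vector and -0.24 (spike-in) with Slpi vector. A list median less that of all features moved mainly without the signal minimum, to -0.26 (adherens junction), -0.27 (scattering), -0.13 (other mesenchymal), -0.45 (tight junction and desmosome) and -0.27 (transition) with Mst1r vector, and to -0.31, -0.35, -0.25, -0.38 and -0.30 between the vectors in the same order. The other epithelial list came to -0.22 between the vectors under normexp. Among differences larger than the error between spots, signs turned between Mst1r and Slpi vector for Zeb2 without rows 1 to 128 (-0.11, from its other probe), and with Mst1r vector for Ezr without scaling (-0.032). With Slpi vector they turned under spike-in scaling for Cd44 (-0.084), Fn1 (-0.15) and Id1 (-0.067), under median scaling for Cd24a (0.020), Id3 (0.038), Itgb1 (0.011) and Smad2 (0.012), and with the mean over probes for Smad2 (0.040) and Nectin3 (1.37). Apart from the changes that follow from a setting's own construction, the cause was not tested. Of the remaining values of single genes, 633 moved by less than that error and 92 by more. No paired analysis was possible because each group held 1 array. With 1 array per group no array could be left out. Signals near background limit what can be said of Cdh1, Epcam and Snai2.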

Other observations

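Some probes of the gene lists had a signal over 50 on at least 1 array without being well above background on all of them. There were 5 such probes, 4 of them in rows 1 to 128, and over all probes of the arrays 1275 of 1346 (94.7%) lay in those rows. Grhl1, an epithelial transcription factor, gave 221, 10.4 and 25.97 with the empty, Mst1r and Slpi vectors (row 35). The third Nectin3 probe gave 4.95, 4.21 and 92.2 (row 43), whereas the other Nectin3 probes gave 862, 632 and 699 (row 218) and 611, 441 and 599 (row 318), so the probes disagreed on the Slpi vector array. Fscn1, which bundles actin in cell protrusions, gave 6.92, 4.25 and 65.0 (row 44). Reln, a marker of stellate cells, gave 7.80, 66.9 and 3.90 (row 106).

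The probes of Tcf4, which encodes the E-box binding factor E2-2, also disagreed. The probe in row 293 gave 41.4 (empty vector), 248 (Mst1r vector) and 103 (Slpi vector), a log2 difference of 2.81 with Mst1r vector. The brightest Tcf4 probe gave 4220, 3639 and 3950 (row 29), and the probe in row 299 gave 2479, 2192 and 2387. On these brighter probes the Mst1r vector array was the lowest, as it was for most probes before scaling. The E-box factor gene Twist2 gave 3.96, 44.5 and 3.51 (row 99).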
